A study of Mus musculus with 16 samples.

Results

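Homeobox genes encode transcription factors that bind DNA through a homeodomain and set regional and cell identity in the embryo. The best known stand in the 4 Hox clusters, and many more are scattered through the genome as the NKX, LIM, DLX, IRX and related families. A named list of 57 such genes outside the Hox clusters was described here, of 21627 protein-coding genes of GRCm38 on the autosomes and chromosome X. The genes were listed by name, but the list was drawn up with earlier results of these data known, so that its high cover, and its contrast with other homeobox genes, are descriptions of a chosen list. Of its names, 57 of 57 were matched. In cells that do not use them, many of these genes are kept off by Polycomb repressive complexes. EZH2 is the catalytic subunit of one such complex and places the mark H3K27me3, the trimethylation of lysine 27 of histone H3, which can spread over a gene and its surroundings as a broad domain.

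ChIP-seq, which sequences the DNA bound to an immunoprecipitated protein, was used to map H3K27me3 in splenic B cells that had been purified from C57BL/6 mice of 6 to 8 weeks with CD43 beads and magnetic sorting. Cells were WT or came from a triple mutant of Ifih1, Rigi and cGAS, genes for sensors of RNA or DNA in the cytosol, and every culture held BAFF and IL-4, each at 2 ng/mL. For 48 hours the cultures received DMSO, the solvent, or 1 µM GSK343, an inhibitor of EZH2. Each genotype and treatment had 2 ChIP and 2 input samples, 16 in 8 groups, and the 4 deposited lists of broad peaks, 1 per genotype and treatment, were analysed. The kind of mutation in each sensor gene, and whether replicates came from separate mice, are not given in the sources used here. Peak names in the lists refer to pooled replicates, so values have no replicate error, no test between lists was possible, and each difference below describes these lists. In the mutant lists alone the prefix of the names ends in 1, and which replicates entered is not given, which bears on each comparison of genotypes. Read depth is unknown from the peak lists.

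The lists differed in size, which bears on each comparison. WT DMSO held 39495 peaks over 84.3 Mb and WT GSK343 11903 peaks over 21.1 Mb. Mutant DMSO held 49803 peaks over 134 Mb and mutant GSK343 10847 peaks over 16.95 Mb. As a check of the cell type, 0 of 8 B cell markers, among them Cd79a and Pax5, had a peak in any of the 4 lists. In each DMSO list 4 of 5 T cell markers and 2 of 4 myeloid markers had one. Over all protein-coding genes 43.5% had one in WT DMSO and 48.9% in mutant DMSO, and the myeloid count is near that share. Under GSK343, 3 of 5 T cell markers in WT and 2 of 5 in the mutant had one, and 1 of 4 myeloid markers in each. The shares over all protein-coding genes were then 26.3% and 24.4%. A mark measured in bulk does not tell fewer marked cells from less mark per cell.

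The homeobox genes were covered by H3K27me3 almost from end to end under DMSO and kept much of that cover under GSK343. Over the gene body plus 5 kb on each side, the window used throughout, the median covered share was 96.7% under DMSO and 67.8% under GSK343 in WT cells. In the mutant it was 100% under DMSO and 61.1% under GSK343. Each of the 57 genes was touched by a peak in each of the 4 lists. Among all protein-coding genes 43.5% were touched under DMSO and 26.3% under GSK343 in WT cells, and 48.9% and 24.4% in mutant cells, and their median covered share was 0 in the 4 lists. At least 50% of the window was covered at 53 genes under DMSO (5.16% of all protein-coding genes) and 42 under GSK343 (1.35%) in WT cells, and at 53 (7.84%) and 38 (0.994%) in mutant cells. The whole window was covered at 27 genes under DMSO (0.763% of all genes) and 4 under GSK343 (0.0925%) in WT cells, and at 31 (1.17%) and 0 (0.0139%) in mutant cells. The authors' fold over background, taken at the strongest peak in each window, had a median of 4.03 in WT DMSO, against 3.04 over all protein-coding genes touched by a peak, and of 4.65 against 2.99 in mutant DMSO. Under GSK343 the medians were closer, 3.49 against 3.25 in WT and 3.34 against 3.16 in the mutant.

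**Figure D1:**
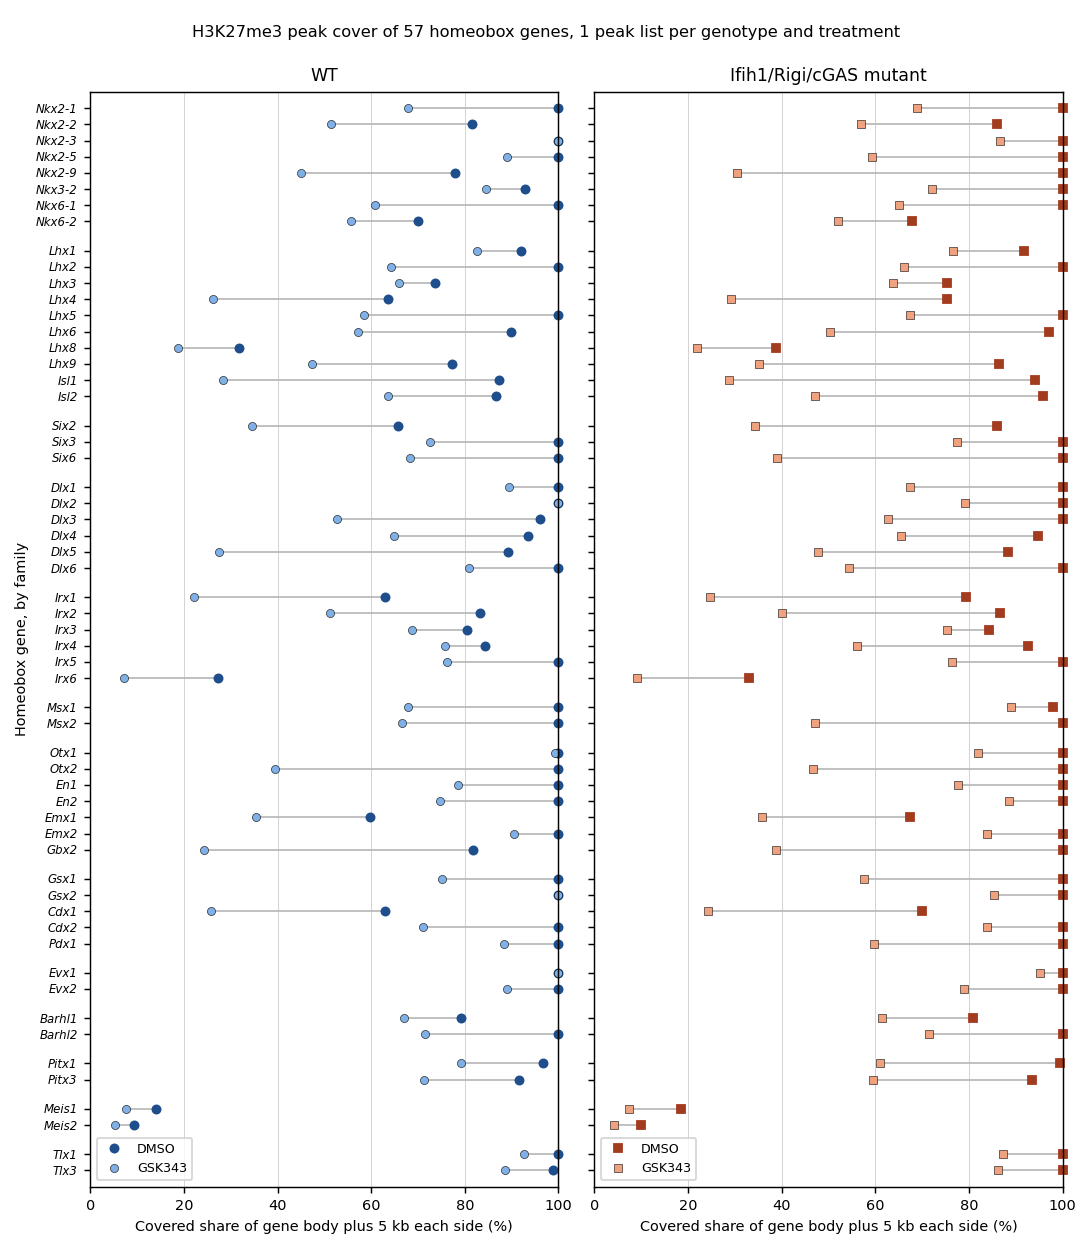
Covered share of the gene body plus 5 kb each side (x axis, %) for each of the 57 homeobox genes (rows, by family), with WT on the left and the mutant on the right. Dark points are DMSO, light points GSK343, and grey lines join the values of a gene; light points lie left of the dark ones except at the 4 genes that stayed at 100% in WT, and the 2 Meis genes lie at the far left.

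Loss of cover under GSK343 was smaller at these genes than at most covered genes. The GSK343 share was 50% or less of the DMSO share at 8 of 57 genes in WT cells, against 82.5% of the protein-coding genes with any DMSO peak, and at 16 of 57 in mutant cells, against 93.3%. Since most genes in that background have small peaks, genes with a DMSO share of at least 50% were also taken, a choice made after the values were seen. Among those, 7 of 53 homeobox genes fell to 50% or less in WT cells, against 55.1% of such genes in all, and 13 of 53 in mutant cells, against 80.3%. The median share retained, which is the GSK343 share as a percent of the DMSO share, was then 73.4% in WT and 66.1% in mutant cells for the homeobox genes. Over all such genes it was 46.0% and 25.3%. Cover was lower under GSK343 at 53 of the 57 genes in WT cells, equal at 4, and lower at 57 of 57 in mutant cells. A fall of some size was general. Among all protein-coding genes with a DMSO peak, cover was lower at 9343 of 9408 in WT and at 10555 of 10569 in mutant cells.

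The cover under GSK343 was narrower and in more pieces. In WT cells the widest peak touching a window had a median of 24.5 kb under DMSO (2.39 to 123 kb) and 8.38 kb under GSK343 (1.20 to 40.1 kb). In mutant cells the medians were 29.0 kb (3.13 to 148 kb) and 6.94 kb (1.22 to 16.1 kb). At 57 of 57 genes the widest peak was shorter under GSK343, in either genotype. Over all protein-coding genes touched by a peak in the list concerned, the median also fell. It went from 3.66 to 2.10 kb in WT and from 4.98 to 1.84 kb in the mutant. Counts of genes with a shorter widest peak or with more peaks are given here for the 57 genes only. They do not show whether shortening or splitting is particular to these genes. Of the 43 genes with 1 peak in WT DMSO, 34 had 2 or more under GSK343, and so did 39 of 45 in the mutant lists. Counting each peak once, the windows were touched by 80 peaks under DMSO and 153 under GSK343 in WT, and by 75 and 181 in the mutant. Their summed length fell from 1.59 to 0.765 Mb in WT and from 2.01 to 0.682 Mb in the mutant. It made up 1.88% of the DMSO list and 3.63% of the GSK343 list in WT, and 1.5% and 4.02% in the mutant.

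**Figure D2:**
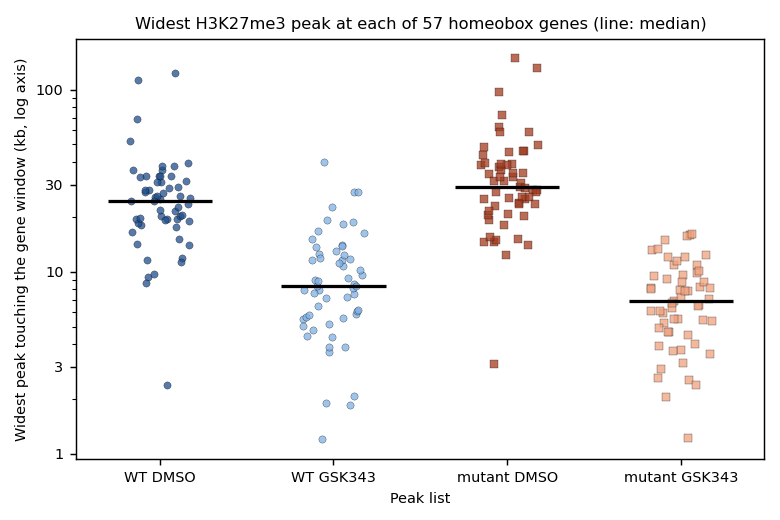
Width of the widest peak that touches each gene window (y axis, kb, log scale) in the 4 lists, 1 point per gene, with the median as a line. The medians fall from 24.5 to 8.38 kb in WT and from 29.0 to 6.94 kb in the mutant.

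Cover was kept most just after the start of the genes, and less on either side. A start site was listed for 45 of the 57 genes. It lay inside a peak at 45 of 45 genes in each DMSO list, at 44 in the WT and 42 in the mutant GSK343 list. Over 17273 protein-coding genes with a listed start, the shares in a peak were 19.4% and 21.3% under DMSO and 13.0% and 12.1% under GSK343, WT before mutant. The exceptions were Meis2 in both GSK343 lists, and Lhx3 and Six3 in mutant GSK343. In the first kilobase after the start, peaks held 100% of the bases in each DMSO list, and 97.8% in the WT and 92.7% in the mutant GSK343 list. In the kilobase before the start cover went from 98.3 to 85.3% in WT and from 99.0 to 78.2% in the mutant. The values fell further with distance. Between 9 and 10 kb upstream they were 51.9% and 23.9% in WT, and 63.1% and 22.5% in the mutant. Between 9 and 10 kb downstream they were 82.6% and 48.9% in WT, and 85.1% and 41.9% in the mutant. The run of 1 kb bins with at least 50% of bases in a peak spanned 27 kb around the start under DMSO and 14 kb under GSK343 in WT, and 31 kb and 12 kb in the mutant. Gene bodies lost a median of 13.1 percentage points in WT and 14.6 in mutant cells, while the 5 kb flanks lost 25.7 and 37.6 points. The fall was larger in the flanks than in the body, or equal to it, at all but 17 genes in WT and 10 in the mutant. Falls in bodies and flanks are given for the 57 genes only. They do not show whether this contrast is particular to these genes.

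**Figure D3:**
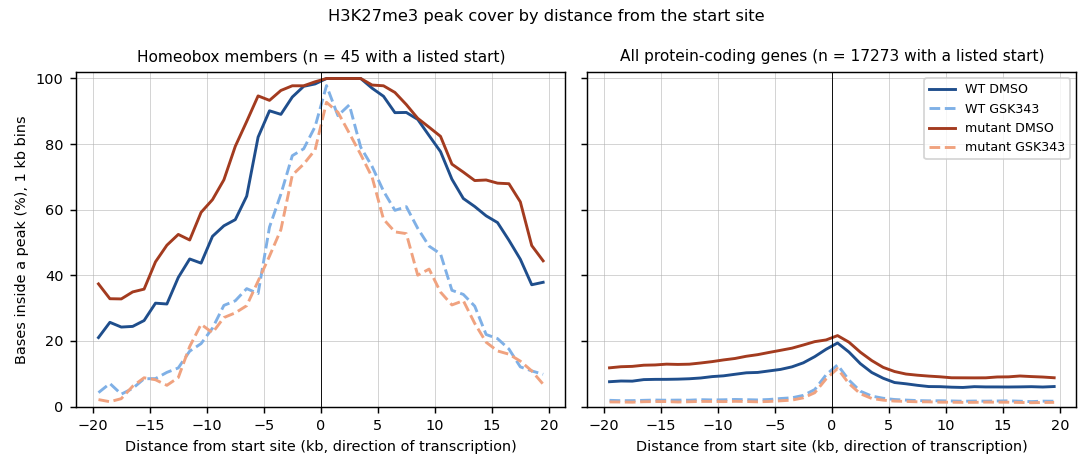
Share of bases inside a peak (y axis, %) in 1 kb bins by distance from the start site (x axis, kb), for the 45 homeobox genes with a listed start on the left and 17273 protein-coding genes on the right, 1 line per list. The homeobox lines meet near 100% at the start, and the dashed GSK343 lines drop faster on both sides, reaching 23.9% in WT and 22.5% in the mutant between 9 and 10 kb upstream.

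The 250 bases before the start are shown for 4 genes, the pairs that retained the most and the least cover in WT cells among those with a listed start, because these sequences lay wholly inside a peak in each of the 4 lists whatever was lost around them. Ties at 100% were resolved by the wider WT GSK343 peak. Sequences are from RefSeq on GRCm38, read 5′ to 3′ on the gene's strand, with each CpG (CG, which reads the same on the other strand) in capitals. Dlx2 (chr2:71546755-71547004, minus strand) and Nkx2-3 (chr19:43612075-43612324, plus strand) retained 100% in WT cells.
Dlx2: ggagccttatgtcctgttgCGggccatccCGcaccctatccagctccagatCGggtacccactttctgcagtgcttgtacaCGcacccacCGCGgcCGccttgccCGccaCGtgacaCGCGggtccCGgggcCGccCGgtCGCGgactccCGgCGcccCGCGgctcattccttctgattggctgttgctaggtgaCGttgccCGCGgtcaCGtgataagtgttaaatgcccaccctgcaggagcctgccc
Nkx2-3: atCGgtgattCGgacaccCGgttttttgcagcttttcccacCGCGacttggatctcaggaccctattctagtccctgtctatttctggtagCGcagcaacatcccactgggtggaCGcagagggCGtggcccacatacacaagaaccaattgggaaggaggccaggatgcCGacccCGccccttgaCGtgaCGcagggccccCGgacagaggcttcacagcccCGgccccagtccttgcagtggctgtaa
Gbx2 (chr1:89931177-89931426, minus strand) retained 29.8% and Isl1 (chr13:116309689-116309938, minus strand) 32.4%.
Gbx2: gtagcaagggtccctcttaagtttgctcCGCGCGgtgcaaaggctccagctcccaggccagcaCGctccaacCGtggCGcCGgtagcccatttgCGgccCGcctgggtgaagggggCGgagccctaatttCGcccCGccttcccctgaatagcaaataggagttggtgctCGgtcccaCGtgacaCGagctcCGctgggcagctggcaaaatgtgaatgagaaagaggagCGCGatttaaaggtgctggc
Isl1: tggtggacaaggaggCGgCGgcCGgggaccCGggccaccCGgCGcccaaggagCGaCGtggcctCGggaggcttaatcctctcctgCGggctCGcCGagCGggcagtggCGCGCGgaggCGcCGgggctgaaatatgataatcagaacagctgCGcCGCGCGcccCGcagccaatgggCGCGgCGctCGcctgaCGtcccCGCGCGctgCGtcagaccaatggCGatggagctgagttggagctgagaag
The 4 stretches hold 24, 14, 18 and 33 CpGs in the order printed. Over the 45 genes the count ran from 4 to 36 with a median of 15, against a median of 10 over 17273 protein-coding genes. At least 1 CpG was present in 45 of 45 homeobox stretches and in 92.8% of all, and at least 10 in 37 of 45 and in 51.0% of all. The CpG count did not order the genes by retained cover: Spearman's rho was 0.06 in WT and 0.02 in mutant cells over 45 genes, given as a description.

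In the accounts that follow, covered shares go from DMSO to GSK343 within a genotype, and coordinates are gene bodies on GRCm38.

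The NKX genes regulate heart, gut, endocrine and ventral neural development. Nkx2-3 (chromosome 19, 43612325 to 43615892), needed for normal spleen and gut development, went from 100 to 86.6% in mutant cells but stayed at 100% in WT. Its widest peak went from 68.6 to 22.6 kb in WT and from 96.6 to 10.9 kb in mutant cells, with the DMSO widths the largest of the family. Nkx2-5 (chromosome 17, 26838664 to 26844988), a cardiac regulator, went from 100 to 88.9% in WT and from 100 to 59.3% in mutant cells, where 6 peaks of at most 6.94 kb remained. For Nkx2-9 (chromosome 12, 56611389 to 56613569), a neural tube factor, the share went from 78.0 to 45.0% in WT and from 100 to 30.5% in mutant cells, and its fall of 69.5 points in the mutant was the largest among the 57 genes there. The gene thus had the higher DMSO share and the lower GSK343 share in the mutant. Nkx2-1, a factor of thyroid, lung and forebrain on the same chromosome, went from 100 to 67.8% in WT and from 100 to 68.8% in mutant cells. Nkx6-2 (chromosome 7, 139579376 to 139582797), a factor of the central nervous system, went from 69.9 to 55.7% in WT and from 67.8 to 52.1% in mutant cells and had the lowest DMSO shares of the family. Nkx6-1, a factor of motor neurons and pancreatic beta cells, went from 100 to 60.8% in WT and from 100 to 65.1% in mutant cells. Nkx2-2, which acts in the ventral neural tube and pancreatic islets, went from 81.5 to 51.4% in WT and from 86.1 to 56.9% in mutant cells. Nkx3-2, a skeletal factor, went from 92.9 to 84.6% in WT and from 100 to 72.1% in mutant cells. Retention in WT thus ran from 57.7% at Nkx2-9 to 100% at Nkx2-3 within the family.

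The LIM-homeodomain genes direct neuronal subtype, pituitary and limb fates and included several with low retention. Isl1 (chromosome 13, 116298270 to 116309688), a factor of motor neurons, heart progenitors and pancreatic islets, went from 87.4 to 28.3% in WT and from 94.1 to 28.8% in mutant cells. Its widest peak went from 14.2 to 3.62 kb in WT and from 14.9 to 2.05 kb in mutant cells. Lhx4 (chromosome 1, 155698031 to 155751726), a pituitary regulator, went from 63.7 to 26.2% in WT and from 75.3 to 29.1% in mutant cells. Its paralogue Lhx3, also a pituitary factor, lost much less and went from 73.7 to 66.0% in WT and from 75.3 to 63.8% in mutant cells. Lhx8 (chromosome 3, 154306288 to 154330560), a factor of cholinergic neurons and oocytes, had the lowest shares of the family, from 31.8 to 18.8% in WT and from 38.8 to 22.0% in mutant cells. Lhx1 (chromosome 11, 84517975 to 84525534), a factor of head and kidney development, had the highest GSK343 shares of the family, from 92.0 to 82.5% in WT and from 91.8 to 76.7% in mutant cells. Lhx2, an eye and forebrain factor, went from 100 to 64.2% in WT and from 100 to 66.1% in mutant cells, in 5 and 8 GSK343 peaks where each DMSO list had 1. The forebrain factor Lhx5 went from 100 to 58.5% in WT and from 100 to 67.4% in mutant cells. Lhx6, a factor of cortical interneurons, went from 89.8 to 57.3% in WT and from 97.0 to 50.3% in mutant cells. Lhx9, a gonad and limb factor, went from 77.2 to 47.4% in WT and from 86.4 to 35.3% in mutant cells. Isl2, which acts in motor neurons beside Isl1, went from 86.6 to 63.5% in WT and from 95.7 to 47.1% in mutant cells. The last 3 kept less in the mutant than in WT, while Lhx2 and Lhx5 kept more.

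The sine oculis homologues Six2, Six3 and Six6 act in eye, forebrain and kidney. Six6 (chromosome 12, 72939882 to 72944899), an eye and pituitary factor, went from 100 to 68.2% in WT and from 100 to 38.9% in mutant cells. Six3, a forebrain and eye factor, went from 100 to 72.6% in WT and from 100 to 77.4% in mutant cells. Six2 (chromosome 17, 85662736 to 85688254), which maintains nephron progenitors, went from 65.7 to 34.5% in WT and from 86.0 to 34.3% in mutant cells. Six2 thus differed between genotypes under DMSO, and Six6 under GSK343.

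The DLX genes stand in adjacent pairs and act in the forebrain and the facial skeleton. Dlx1 and Dlx2 shared 1 peak of 33.6 kb in WT DMSO, of 27.5 kb in WT GSK343 and of 35 kb in mutant DMSO. Dlx2 (chromosome 2, 71543408 to 71546754) went from 100 to 79.2% in mutant cells but stayed at 100% in WT, and Dlx1 (chromosome 2, 71528113 to 71533981) went from 100 to 89.4% in WT and from 100 to 67.4% in mutant cells. The pair Dlx5 and Dlx6 shared a DMSO peak of 38.0 kb in WT and 38.3 kb in the mutant but differed under GSK343. Dlx5 (chromosome 6, 6877801 to 6882068) went from 89.2 to 27.6% in WT and from 88.5 to 47.8% in mutant cells, and its fall of 61.6 points was the largest of any member in WT. Dlx6 (chromosome 6, 6863334 to 6867970) went from 100 to 80.9% in WT and from 100 to 54.4% in mutant cells. In WT Dlx6 thus retained 80.9% and Dlx5 30.9% of the DMSO share, while in the mutant they retained 54.4% and 54.0%. Dlx3 (chromosome 11, 95120117 to 95125296), a factor of skin and bone, went from 96.1 to 52.8% in WT and from 100 to 62.7% in mutant cells. Dlx4, its partner in the adjacent pair, went from 93.5 to 64.9% in WT and from 94.7 to 65.6% in mutant cells.

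The Iroquois (IRX) genes pattern neural tissue, heart and limb, and their cover varied. Irx6 (chromosome 8, 92674289 to 92680956) was little covered in each list and went from 27.4 to 7.20% in WT and from 33 to 9.18% in mutant cells. Its widest peak, from 2.39 to 1.20 kb in WT and from 3.13 to 1.22 kb in mutant cells, was the narrowest of the 57 genes in each list. Irx5 lies on the same chromosome and went from 100 to 76.2% in WT and from 100 to 76.4% in mutant cells. Irx3, the third gene of that group, went from 80.5 to 68.7% in WT and from 84.3 to 75.3% in mutant cells. Irx1 (chromosome 13, 71958232 to 71963723) went from 62.9 to 22.2% in WT and from 79.5 to 24.7% in mutant cells. Irx2, near Irx1 on chromosome 13, went from 83.2 to 51.3% in WT and from 86.7 to 40.1% in mutant cells. Irx4, a ventricular factor of the heart on the same chromosome, went from 84.3 to 75.8% in WT and from 92.7 to 56.1% in mutant cells. Irx1 and Irx6 thus retained little in either genotype, while Irx3 and Irx5 retained most of their cover in both.

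The factors that divide the early brain into regions included genes that kept and genes that lost most of their cover. Otx1 (chromosome 11, 21994764 to 22001651), a cortical and sense organ factor, went from 100 to 99.2% in WT and from 100 to 82.0% in mutant cells. Its paralogue Otx2 (chromosome 14, 48656781 to 48667644), required for forebrain and midbrain, went from 100 to 39.5% in WT and from 100 to 46.8% in mutant cells, over 6 and 4 GSK343 peaks. Gbx2 (chromosome 1, 89927962 to 89931176), which sets the midbrain to hindbrain boundary with Otx2, went from 81.7 to 24.4% in WT and from 100 to 38.7% in mutant cells. En2 (chromosome 5, 28165696 to 28172190), a factor of that boundary and the cerebellum, went from 100 to 74.7% in WT and from 100 to 88.6% in mutant cells. En1, its paralogue, went from 100 to 78.6% in WT and from 100 to 77.8% in mutant cells. The cortical factor Emx2 went from 100 to 90.6% in WT and from 100 to 83.8% in mutant cells, and Emx1 went from 59.8 to 35.3% in WT and from 67.3 to 35.8% in mutant cells, from the lowest DMSO shares of this group. The craniofacial factor Msx1 (chromosome 5, 37820491 to 37824585) went from 100 to 67.8% in WT and from 97.9 to 89.0% in mutant cells and so kept more in the mutant. Its paralogue Msx2 went the other way, from 100 to 66.5% in WT and from 100 to 47.0% in mutant cells.

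Gsx1, Pdx1 and Cdx2 lie within 1 region of chromosome 5 as the ParaHox genes, relatives of the Hox genes that act in neural tube, pancreas and intestine. Pdx1 (chromosome 5, 147270097 to 147275848) and Cdx2 (chromosome 5, 147300900 to 147307249) shared a 58.2 kb peak in mutant DMSO. Pdx1 went from 100 to 88.4% in WT and from 100 to 59.6% in mutant cells, in 1 GSK343 peak in WT and 6 in the mutant. Cdx2 went the other way between genotypes, from 100 to 71.1% in WT and from 100 to 83.8% in mutant cells. Gsx1 went from 100 to 75.2% in WT and from 100 to 57.5% in mutant cells. Gsx2 (chromosome 5, 75075601 to 75077893), a striatal factor outside that region, went from 100 to 85.4% in mutant cells but stayed at 100% in WT. Cdx1 (chromosome 18, 61018862 to 61036199), an intestinal factor, had less cover and went from 63.0 to 25.9% in WT and from 70.0 to 24.3% in mutant cells.

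The Evx genes adjoin Hox clusters and lay in the widest peaks. The WT DMSO peak over Evx1 (chromosome 6, 52313498 to 52318389) was 123 kb wide, from 52204490 to 52326990, and also touched 8 Hoxa genes. In mutant DMSO the widest was that over Evx2 (chromosome 2, 74652989 to 74661520), 148 kb from 74635701 to 74783723, which touched 9 Hoxd genes. Evx1 went from 100 to 95.1% in mutant cells but stayed at 100% in WT, and its share in mutant GSK343 was the highest of the 57 genes. Evx2 went from 100 to 89.0% in WT and from 100 to 79.0% in mutant cells. In WT GSK343 a 40.1 kb peak reached from Evx2 over 5 Hoxd genes, while the widest peak at Evx2 in mutant GSK343 was 7.84 kb.

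The Barhl and Pitx genes lay near the middle of the list. Barhl2, a neuronal factor, went from 100 to 71.4% in WT and from 100 to 71.4% in mutant cells, nearly the same in the genotypes. Barhl1, a factor of hair cells and cerebellum, went from 79.2 to 67.1% in WT and from 80.8 to 61.5% in mutant cells. Pitx1, a hindlimb and pituitary factor, went from 96.7 to 79.3% in WT and from 99.4 to 61.1% in mutant cells. Pitx3, a factor of lens and dopaminergic neurons, went from 91.5 to 71.2% in WT and from 93.5 to 59.5% in mutant cells. Each Pitx gene kept less in the mutant.

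Of the genes known from blood or spleen, the Tlx pair kept high shares and the Meis pair had low ones throughout. Tlx1 (chromosome 19, 45150092 to 45156943), required for the spleen to form and activated by translocation in T cell leukaemia, went from 100 to 92.6% in WT and from 100 to 87.3% in mutant cells. Tlx3, its paralogue, went from 98.8 to 88.6% in WT and from 100 to 86.1% in mutant cells. Meis1 (chromosome 11, 18880428 to 19019651), a Hox cofactor in blood stem cells, went from 14.0 to 7.68% in WT and from 18.6 to 7.48% in mutant cells. Meis2 (chromosome 2, 115861264 to 116067537) went from 9.38 to 5.36% in WT and from 10.1 to 4.15% in mutant cells. These genes are 139224 and 206274 bp long, the longest of the list, so that a peak makes up a small share of the window. The widest peak touching the window in WT DMSO was 19.7 kb at Meis2 and 15.2 kb at Meis1, where it lay beyond the 3′ end of the gene. The WT DMSO peak over the Meis1 start was 14.3 kb wide.

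**Figure D4:**
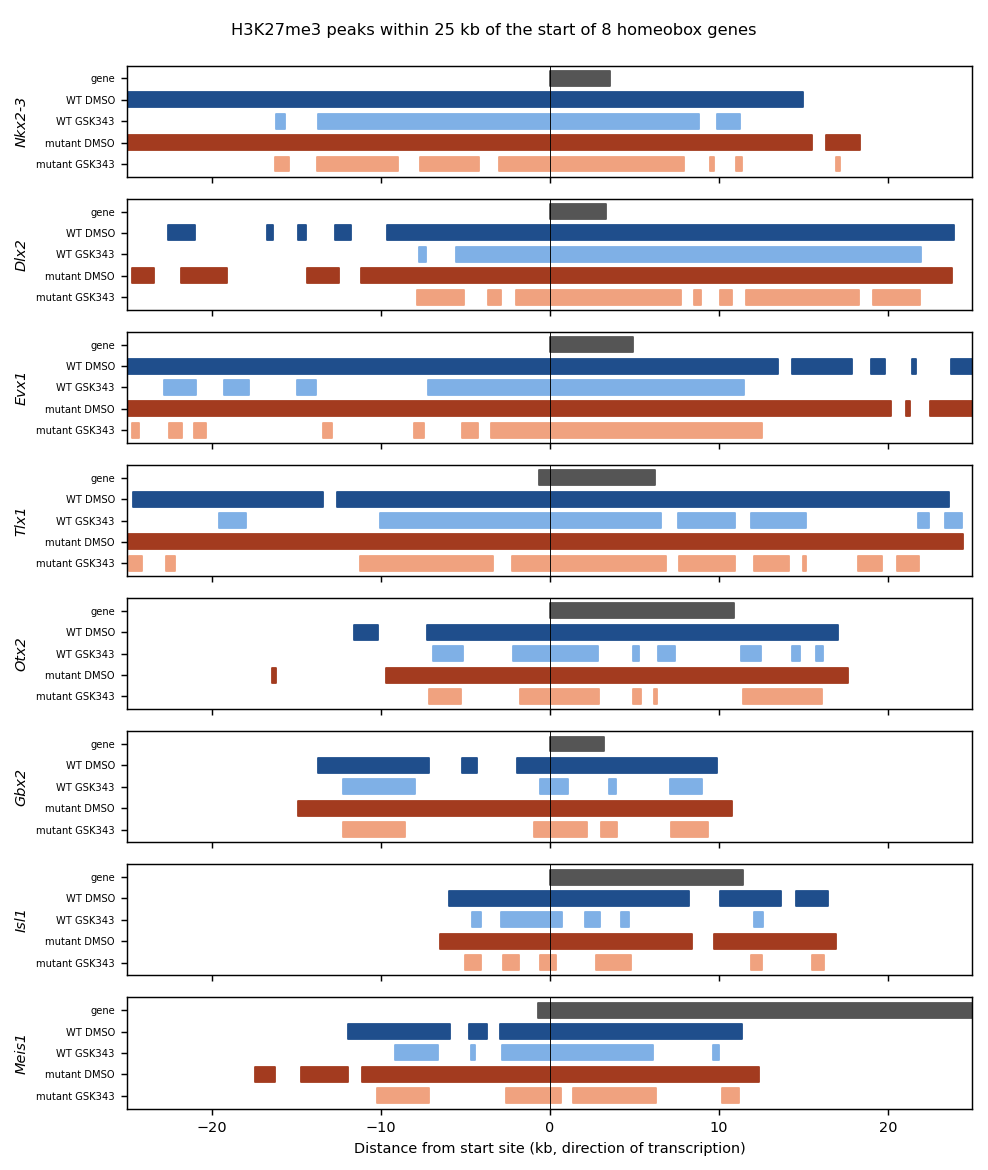
Peaks in the 4 lists (coloured bars) and the gene body (grey bar) within 25 kb of the start site of 8 homeobox genes, by distance from the start in the direction of transcription (x axis, kb). In Nkx2-3, Dlx2, Evx1 and Tlx1 GSK343 peaks still cover most of the gene, while in Otx2, Gbx2, Isl1 and Meis1 the DMSO peak gives way to shorter pieces with 1 over the start.

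The genes were ordered much alike in the genotypes. Across the 57 genes, Spearman's rho between the retained shares in WT and in mutant cells was 0.77, a description over genes that partly share peaks. Retained cover went with the width of the widest DMSO peak (rho of 0.46 in WT and 0.42 in mutant cells), with the highest DMSO fold in the window (0.49 and 0.51) and, inversely, with gene length (-0.36 in either genotype). In both genotypes 7 genes retained 50% or less: Lhx4, Isl1, Irx1, Irx6, Otx2, Gbx2 and Cdx1. To these were added Dlx5 in WT, and in the mutant Nkx2-9, Lhx9, Isl2, Six2, Six6, Irx2, Msx2, Meis1 and Meis2. Just inside and outside the 50% limit were Lhx4 at 41.1% and Six2 at 52.6% in WT, and Isl2 at 49.2% and Lhx6 at 51.8% in the mutant.

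**Figure D5:**
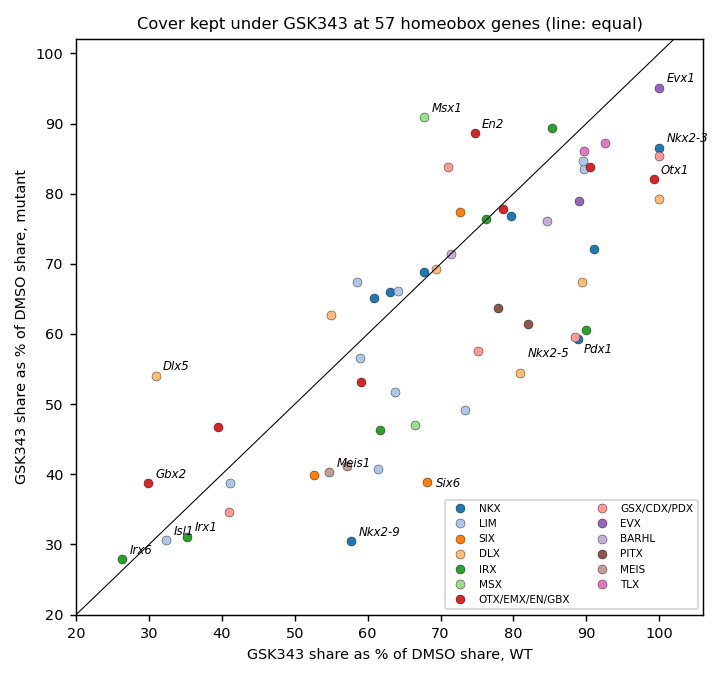
GSK343 share as a percent of the DMSO share in WT (x axis) and mutant cells (y axis), 1 point per gene, coloured by family, with the line of equal values. Most points (40 of 57) lie below the line, from Irx6 at 26.3% and 27.8% to Evx1 at 100% and 95.1%, with Msx1, Dlx5 and En2 among the 17 above it.

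Between genotypes, cover was higher in the mutant list at 27 genes under DMSO, equal at 26, each at 100% in both lists, and lower at 4. Among all protein-coding genes with a peak in either DMSO list, it was higher at 9311 of 10880, equal at 162 and lower at 1407. Over the 57 genes the mean share was 86.0% in WT and 89.3% in mutant DMSO. The mutant share was at least 10 points higher at 5 of 57 genes, Nkx2-9, Six2, Gbx2, Irx1 and Lhx4, against 21.7% of all protein-coding genes with a peak in either list, and at least 10 points lower at 0 of 57, against 0.588%. Among genes with a WT share of at least 50%, 5 of 53 homeobox genes were at least 10 points higher, against 37.1% of such genes in all, and 0 of 53 at least 10 points lower, against 1.61%. Genes already at 100% in WT cannot rise. The lowest difference was at Nkx6-2, at -2.13 points. Under GSK343 the mutant share was lower at 34 of the 57 genes and higher at 23, with means of 62.6% in WT and 57.9% in the mutant. Among all protein-coding genes with a peak in either GSK343 list, it was lower at 4058 of 6169 and higher at 2106. It was at least 10 points lower at 20 of 57 genes, against 6.95% of genes with a peak in either list, and at least 10 points higher at 5, against 1.33%. Among genes with a WT GSK343 share of at least 50%, 18 of 42 homeobox genes were at least 10 points lower in the mutant, against 47.6% of such genes in all, and 3 of 42 were at least 10 points higher, against 4.79%. Both shares are near that background. The largest differences under GSK343 were those at Nkx2-5 (-29.6 points), Six6 (-29.3), Pdx1 (-28.8), Dlx6 (-26.5) and Dlx1 (-22.0), and in the other direction at Msx1 (21.2), Dlx5 (20.2), Gbx2 (14.3), En2 (13.9) and Cdx2 (12.7). The 2 lists of a treatment also differ in their total length, given above, and the part of list size in these differences was not tested.

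By median covered share, the 57 lay between the Hox genes and a chosen list of further developmental homeobox genes. The exception was mutant DMSO, where the 57 and the Hox genes were both at 100%. The 39 Hox genes had median shares that went from 100 to 82.6% in WT and from 100 to 70.8% in the mutant. A list of 56 further developmental homeobox genes, such as Lmx1b and Vax1, had medians that went from 84.5 to 46.5% and from 94.1 to 42.6%. With a DMSO share of at least 50%, the Hox genes retained a median of 82.6% in WT and 70.8% in the mutant, and the further genes 61.9% and 52.8%. Not every measure gave this order. Among genes with any DMSO peak, those at 50% or less of the DMSO share in WT made up 14.0% of the 57, 15.4% of the Hox and 37.5% of the further genes. In the mutant the values were 28.1%, 23.1% and 48.1%. Homeobox genes of broad or B cell expression were touched about as often as protein-coding genes in general. Of 19, such as Pou2f1, Satb1 and Zeb1, 12 had no peak under DMSO and 14 none under GSK343 in WT. In the mutant 11 and 15 had none. A peak touched 36.8% and 26.3% of the 19 in WT and 42.1% and 21.1% in the mutant, DMSO before GSK343. Over all protein-coding genes the values were 43.5% and 26.3% in WT, and 48.9% and 24.4% in the mutant. The median share was 0 in the 4 lists for the 19 and for all protein-coding genes. Among the 19, Six5 went from 100 to 71.5% in WT and from 100 to 65.2% in mutant cells. Pou2f2, which encodes the B cell factor Oct-2, went from 39.5 to 6.40% in WT and from 42.5 to 6.46% in mutant cells.

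Finally, DMSO peaks of at least 10 kb were followed into the GSK343 lists, a comparison added after the values were seen. In WT cells 53 such peaks touched a homeobox window and 1198 did not. The GSK343 peaks covered a median of 63.0% of the former (quartiles 52.7 and 68.7%) and 43.1% of the latter (29.0 and 55.2%). In mutant cells the medians were 45.2% over 56 peaks and 17.6% over 2468. A GSK343 peak was absent from 0 of 53 and 0 of 56 homeobox domains, and from 16 and 465 of the others. The domains that touched these windows were also wider, at a median of 24.5 kb against 14.0 kb in WT and 28.2 kb against 14.5 kb in the mutant. Their median fold was higher too, at 4.02 against 3.57 and 4.56 against 3.52. The part of width and fold in the difference was not tested.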

How the data were processed

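Processing before deposition was the authors'. Per the submitters' processing notes the tools were bcl2fastq, Bowtie2 2.4.2, SAMtools 1.12, MACS2 2.2.7.1, bedtools 2.29.2 and deepTools 3.5.1, with build mm10 (GRCm38), but their settings are not given in the sources used here. The deposited lists are in broadPeak layout, with peak starts and ends, a score, a fold over background (a linear ratio), and the −log10 of a p-value and of a q-value for each peak. The deposited score was not analysed. Peaks overlapping a blacklist had been removed, per the file names. Peak names refer to pooled duplicates; in the mutant lists their prefix ends in 1, and which replicates entered is not given in the sources used here.

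Genes came from a RefSeq table of GRCm38.p6, and start sites and sequences from a RefSeq promoter table with strand, using the outermost listed start; 1668 of 1668 overlapping windows on opposite strands read as reverse complements. Covered bases were summed over each gene body plus 5 kb each side, with an overlap of at least 1 bp. Groups were taken from sample titles, and the list of each group from its peak-name prefix. The members and gene lists were chosen with earlier results of these data known. Every member could be named; fuller values were given to the 5 highest and lowest in WT GSK343, the 5 largest falls and genotype differences, the widest peaks, and Evx1, Evx2, Meis1, Tlx1 and Nkx2-3, and a few more were chosen after their values were seen to contrast with a paralogue or neighbour. Of 57 further developmental homeobox genes listed, 56 were matched. Python 3.11.15 was used with pandas 2.3.3, scipy 1.17.1, numpy 2.4.6 and, for plots, matplotlib 3.10.9. Interval code was checked on simulated windows (200 of 200 recovered) and against bedtools 2.31.1 (86508 of 86508 windows the same).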

Additional observations from a re-analysis of the deposited data

Results flagged for a closer look

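The difference between genotypes had opposite signs under the treatments. Averaged over the 57 genes, the mutant share was higher than WT by 3.33 percentage points under DMSO and differed by -4.71 points under GSK343. Over all protein-coding genes with a peak in either list, the mean shares also differed in opposite directions. They were 16.7% in WT and 22.6% in the mutant under DMSO, and 11.0% and 9.19% under GSK343. At Nkx2-9 the mutant share was 22.0 points higher under DMSO and differed by -14.6 points under GSK343. Nkx2-9 was the gene with at least 10 points in each direction. With 1 list per group these differences were not tested. The total length of the lists went the same way, 134 Mb in the mutant against 84.3 Mb in WT under DMSO and 16.95 against 21.1 Mb under GSK343, and its part was not tested.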

How the results depend on the processing

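The 12 alternative settings, of which 1 was added after the data were seen together with the mean difference between genotypes, gave 158 values for 22 summary results. Of these, 145 stayed within 1.5 times the value reported, 13 moved further and 0 changed sign. A change of sign was possible only for the differences between genotypes whose reported value was not 0, and not for counts, shares or widths. At a q-value limit of 0.01, 22 of 22 stayed, and with each list cut to its 10847 top peaks by p-value, 18 of 18. That cut left the mutant GSK343 list whole and shortened WT GSK343 only from 11903 peaks, so it could change little under GSK343. With 10 kb flanks the genes at 50% or less of the DMSO share numbered 15 in WT and 26 in mutant cells, 23 genes were covered by at least 50% in mutant GSK343, and the mutant minus WT difference under DMSO was 5.96 points by the mean and 3.71 by the median. With no flank the mean difference was 1.58 points under DMSO and -0.805 under GSK343, and the median under GSK343, -2.18 as reported, was 0. That median was -3.60 with a fold of at least 3. The WT count of 8 genes at 50% or less was 15 where the −log10 p-value had to reach 5 and 5 with peaks closer than 3 kb merged. Merging also raised the median widest peak under GSK343 to 16.6 kb in WT and 15.8 kb in the mutant, since it joins neighbouring pieces. The cause of the other changes was not tested. For the retained share of single genes, 917 of 1002 values stayed and 85 moved, 23 of them with 2.5 kb each side of the start. No paired analysis was possible because the deposited peak lists, 1 a group, carry no value for any replicate; for this reason a replicate could not be left out either. The unknown depth and the peak threshold limit what counts as uncovered.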

Other observations

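Among the further developmental homeobox genes, Hlx and Hesx1 had no peak in WT GSK343, and Hesx1 none in mutant GSK343. Hlx was covered by 29.2% under DMSO in WT, and by 47.2% under DMSO and 21.6% under GSK343 in the mutant.

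Peak numbers run in order along each list, and some are absent. Numbers are absent between the peaks next to 1 of the 57 genes under DMSO (Isl2) and 2 under GSK343 (Isl2 and Lhx6) in the mutant, and next to 0 in the WT lists. Over the whole lists the absent numbers make up 2.89% to 3.72% of the numbering.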
